A study of Mus musculus with 61 samples.

Results

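Ppp1r27 (protein phosphatase 1 regulatory subunit 27) is 1 of 55011 genes in a count table made from whole skeletal muscle of mice. It was chosen by its CPM (counts scaled to a library's total) in the recovery days of both muscles of wild-type mice, where it was lower soon after exercise. Those values describe the choice and are given without a test. Muscle RNA was sequenced in 61 libraries of 22 groups. The groups addressed how muscle responds to exercise, how far that response needs Foxp3-expressing regulatory T cells (Tregs), and what neutralising interferon-gamma changes.

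C57BL/6J mice were sampled while sedentary and on day 1, day 2 or day 7 after acute exercise, in quadriceps (Qd) and tibialis anterior (TA), 3 libraries per muscle and time. The libraries of the muscles share ID numbers, read here as the mouse, which the labels do not state. Foxp3DTR+ mice carry a human diphtheria toxin receptor and green fluorescent protein at Foxp3, so that diphtheria toxin (DT) kills Foxp3-expressing cells. Foxp3DTR- mice received DT as well, and lack the receptor. These are written DTR+ and DTR- here. In a first experiment DTR+ and DTR- quadriceps were taken sedentary, at day 1 or at day 7 after acute exercise, with 2 or 3 libraries per group. In a second, DTR+ and DTR- quadriceps came from mice trained for 2 weeks (EXT) or left sedentary (SED), 3 libraries each. In the antibody experiment, trained DTR+ mice given DT also received an antibody to interferon-gamma (aIFNg) or control IgG every other day for 1 week, 3 libraries each. In the last, sedentary C57BL/6JN mice aged 24 months received aIFNg or IgG, with 2 libraries each and a muscle that the labels do not name. The DTR groups are models of toxin-driven loss of all Foxp3-expressing cells in the body, not in muscle alone. Nothing in the labels says that libraries of a group came from separate litters or days. The p-values thus weigh differences against the spread between these samples alone.

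Protein phosphatase 1 (PP1) removes phosphate from serine and threonine residues and gets its direction from a large family of regulatory subunits that bind its catalytic subunits. Ppp1r27, also named Dysfip1 or toonin, is a small ankyrin-repeat protein that binds dysferlin, the membrane-repair protein lost in a form of limb-girdle muscular dystrophy, and inhibits PP1 in vitro. Other subunits bring PP1 to glycogen or to myosin, and PP1 at glycogen activates glycogen synthase and switches off phosphorylase.

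In GRCm38 Ppp1r27 (ENSMUSG00000025129.2) lies on the minus strand of chromosome 11, from 120549979 to 120551132, in GENCODE vM21. It has 3 exons, a transcript of 771 bases and a coding sequence of 462 bases, and no annotated gene overlaps it. Its nearest neighbour, Mcrip1, is 251 bases away on the same strand, and P4hb, a protein disulfide isomerase, is 9165 bases away. The 250 bases before its RefSeq start (GRCm38.p6, chr11:120551133-120551382, minus strand, 5′ to 3′) are given because transcription of the gene begins at their end, with capitals marking each CAGCTG and TATAAG.
Ppp1r27: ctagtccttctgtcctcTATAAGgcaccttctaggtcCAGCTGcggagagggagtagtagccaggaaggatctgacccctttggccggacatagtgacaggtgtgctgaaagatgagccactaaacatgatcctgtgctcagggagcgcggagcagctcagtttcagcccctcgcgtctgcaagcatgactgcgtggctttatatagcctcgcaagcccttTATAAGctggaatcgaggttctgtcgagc
Of the motifs searched on both strands, CAGCTG occurred 1 time, TATAAG 2 times and CACGTG 0 times. The shares of 32536 mouse promoters of the same length with a match were 13.1% for CAGCTG, 6.6% for TATAAG and 6.0% for CACGTG. These matches describe the letters of the window and no binding was measured.

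Libraries held 3359683 to 14445336 counts, of which 618 to 6779 were Ppp1r27 counts, so counting error, which leaves out all other error, was 1.22% to 4.02% of a value. The wild-type libraries were alike in makeup, with 4.13% to 6.25% of counts from mitochondrially encoded genes and 17373 to 21060 genes detected. The acute DTR libraries were not. The mitochondrial share was 21.4% to 23.5% in sedentary DTR+ and 7.90% to 12% in sedentary DTR- quadriceps, against 5.44% to 6.56% in both genotypes at day 1. In bulk muscle, fewer cells of a type and less RNA per cell cannot be told apart.

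In sedentary wild-type muscle Ppp1r27 was the most abundant of 39 PP1 subunits and partners when counts were divided by the longest transcript. This rank rests on its short transcript of 771 bases, against 2725 for Ppp1r3c and 6965 for Ppp1r3a. In CPM both of these stood above Ppp1r27 in both muscles. Ppp1r27 averaged 384.0 ± 44.7 CPM per kb in quadriceps and 239.5 ± 14.6 CPM per kb in tibialis anterior (SD, n = 3 each). Ppp1r3c, which brings PP1 to glycogen, came next with 222.4 ± 2.61 and 177.2 ± 9.10 CPM per kb in quadriceps and tibialis anterior. The catalytic subunit Ppp1ca averaged 99.2 ± 9.14 and 112.4 ± 4.08 CPM per kb, and Dysf (dysferlin) 7.36 ± 0.277 and 9.06 ± 1.18 CPM per kb, in the same order.

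After acute exercise Ppp1r27 in wild-type quadriceps was low at day 1 and day 2 and back in the sedentary range at day 7. Sedentary quadriceps had 266.6, 334.0 and 287.5 CPM. At day 1 the libraries had 181.4, 177.0 and 147.3 CPM, at day 2 they had 208.7, 220.4 and 165.8 CPM, and at day 7 they had 291.2, 292.8 and 306.0 CPM. Every day 1 and day 2 library was below every sedentary one, and the day 7 libraries lay within the sedentary range. The day 1 mean was 56.9% of the sedentary mean, the day 2 mean 67.0% and the day 7 mean 100.2%. On the fitted log2 scale the differences from sedentary were -0.79 ± 0.11 at day 1, -0.56 ± 0.11 at day 2 and 0.03 ± 0.11 at day 7 (SE). Over all 13062 genes tested in quadriceps, edgeR called 0.582% at day 1, 0.299% at day 2 and 0.214% at day 7.

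Tibialis anterior showed the same order of days at lower levels. Its sedentary libraries had 197.2, 175.5 and 181.4 CPM. Day 1 gave 99.9, 86.7 and 80.7 CPM, day 2 gave 107.2, 103.1 and 90.1 CPM, and day 7 gave 157.9, 138.6 and 158.6 CPM. All 3 days were below the sedentary libraries without overlap, at 48.3%, 54.2% and 82.2% of the sedentary mean, and the gap at day 7 was 16.9 CPM between the highest day 7 and the lowest sedentary library. The fitted differences were -1.01 ± 0.12 at day 1, -0.84 ± 0.11 at day 2 and -0.22 ± 0.11 at day 7 (log2, SE). Of 12692 genes tested, 0.0552%, 0.063% and 0.0158% were called at day 1, day 2 and day 7. The 3 comparisons within a muscle share its sedentary libraries.

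**Figure D1:**
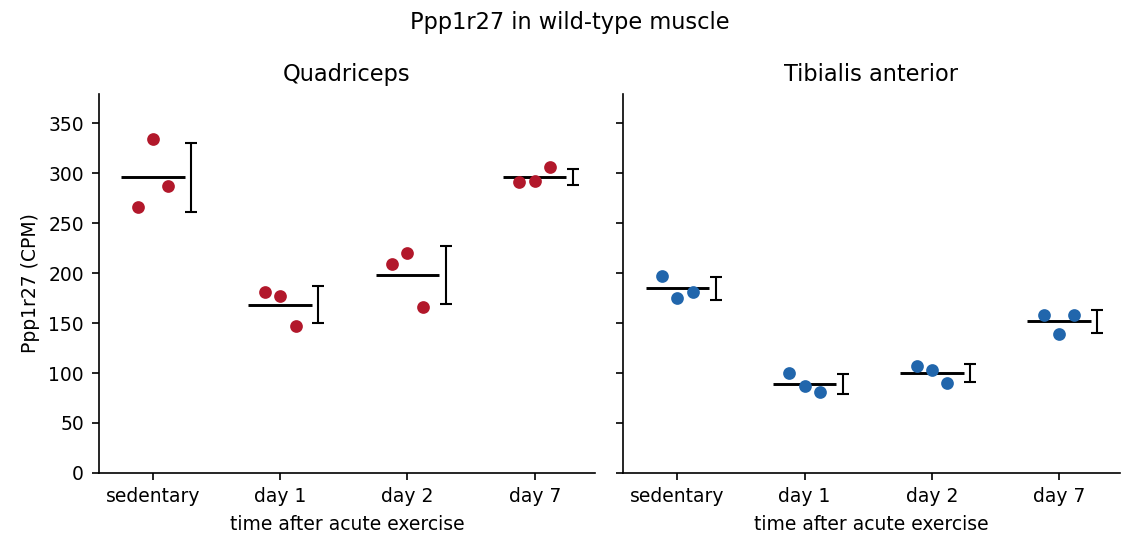
Ppp1r27 in CPM (y axis) in each wild-type library by time after acute exercise (x axis), quadriceps left and tibialis anterior right. Points are libraries, lines are means and bars are the SD (n = 3). Day 1 and day 2 libraries sit below every sedentary library of their muscle, with means of 168.6 and 198.3 CPM against 296.0 CPM in quadriceps and 89.1 and 100.1 CPM against 184.7 CPM in tibialis anterior.

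At rest, quadriceps held more Ppp1r27 than tibialis anterior. The levels averaged 296.0 ± 34.5 CPM in sedentary quadriceps and 184.7 ± 11.2 CPM in sedentary tibialis anterior (SD, n = 3 each), without overlap. The log2 fold change was 0.67 ± 0.11 (SE, edgeR adjusted p = 0.00107), in a comparison where 1.3% of 13819 genes were called. The gene was not chosen on this contrast, but the same sedentary libraries are the reference of the responses it was chosen on. Within libraries that share an ID number, the ratio of quadriceps to tibialis anterior was 1.35, 1.90 and 1.59 at rest. It was 1.82, 2.04 and 1.83 at day 1, 1.95, 2.14 and 1.84 at day 2, and 1.84, 2.11 and 1.93 at day 7. The ratio was above 1 for 12 of 12 ID numbers, and the sedentary ratios overlapped those of each later day. The difference between the muscles' responses was 0.22 ± 0.16 at day 1, 0.29 ± 0.16 at day 2 and 0.25 ± 0.16 at day 7 (log2, quadriceps minus tibialis anterior, SE), while 0.0434%, 0.00724% and 0.0796% of 13819 genes were called for such a difference.

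**Figure D2:**
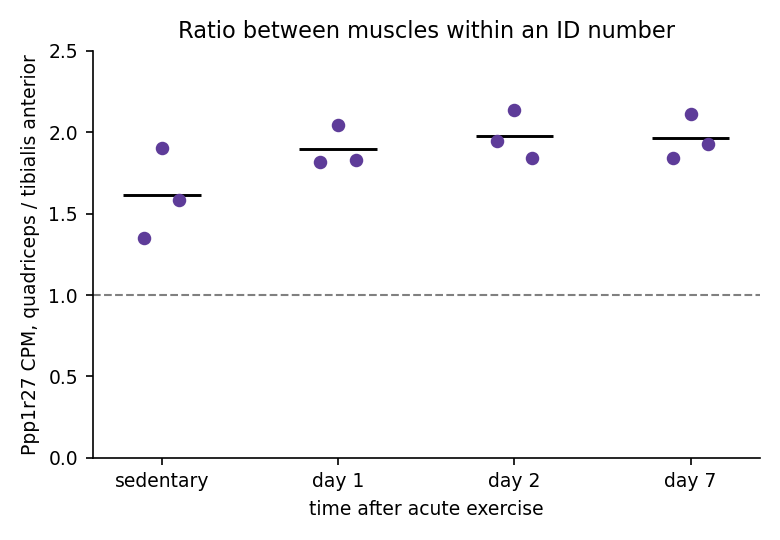
Ratio of Ppp1r27 CPM in quadriceps to that in tibialis anterior (y axis) for libraries sharing an ID number, by time after acute exercise (x axis). Points are single ID numbers, short lines are means (n = 3) and the dashed line marks equal levels. All 12 ratios lie above 1, from 1.35 to 2.14.

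Markers of several cell types differed between the resting muscles. Slow fibre markers summed to 639.9 to 1164 CPM in sedentary quadriceps and 173.7 to 182.1 CPM in sedentary tibialis anterior. Of these, 6 of 6 were called higher in quadriceps by edgeR, where 0.586% of all genes were called higher and 0.716% lower. The fast fibre markers summed to 133500 to 140000 CPM in quadriceps and 131800 to 138500 CPM in tibialis anterior, with 1 of 6 called higher and 1 called lower. Adipocyte markers summed to 139.2 to 207.4 CPM in quadriceps and 44.1 to 74.6 CPM in tibialis anterior (1 of 4 called higher). Endothelium markers went the other way, with 151.0 to 191.6 CPM in quadriceps and 227.2 to 234.9 CPM in tibialis anterior (0 of 4 called). The part of these markers in the difference was not tested. Markers of all fibres summed to 134500 to 141000 CPM at day 1 against 139400 to 140300 CPM in sedentary quadriceps (0 of 5 called), and to 123200 to 127200 CPM at day 1 against 122700 to 127000 CPM in sedentary tibialis anterior (1 of 5 called higher). Fibro-adipogenic progenitor markers summed to 765.5 to 952.9 CPM at day 1 against 959.6 to 1233 CPM in sedentary quadriceps, and to 620.1 to 875.2 CPM at day 1 against 1138 to 1350 CPM in sedentary tibialis anterior, with 0 of 5 called in either muscle and none at 0. Other markers were also lower in tibialis anterior at day 1, with 0 called. Endothelium markers summed to 195.1 to 203.6 against 227.2 to 234.9 CPM and macrophage markers to 46.6 to 61.7 against 63.3 to 84.5 CPM. Tendon markers summed to 228.8 to 301.8 against 341.8 to 430.9 CPM. In quadriceps the day 1 and sedentary ranges of these lists overlapped. Satellite cell markers summed to 3.085 to 4.401 CPM at day 1 against 5.758 to 7.085 CPM in sedentary tibialis anterior. In quadriceps they summed to 4.062 to 6.538 against 6.858 to 9.212 CPM. Of the 2 tested, 2 were lower in tibialis anterior and 1 in quadriceps, with 0 called. Slow fibre markers summed to 621.5 to 745.2 CPM at day 1 and 585.5 to 668.5 CPM at day 2 against 639.9 to 1164 CPM in sedentary quadriceps, with 6 of 6 lower on both days and 0 called. In tibialis anterior they summed to 86.6 to 125.9 CPM at day 1 and 55.1 to 154.5 CPM at day 2 against 173.7 to 182.1 CPM when sedentary, with 3 of 6 lower at day 1, 6 of 6 at day 2 and 0 called. The part of these markers in the Ppp1r27 values was not tested.

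Few genes of any kind were called in wild-type recovery, from 0.0158% to 0.582% of those tested, so counts of 0 in lists of this size are near that background. Of 38 listed subunits and partners, 31 were tested in quadriceps and 29 in tibialis anterior, and edgeR called 0 of them in any of the 6 wild-type recovery comparisons. At an unadjusted p under 0.05 there were 2 to 4 per comparison, and DESeq2 called 1, in quadriceps at day 1. Their median log2 difference was 0.04 in quadriceps and -0.07 in tibialis anterior at day 1, against -0.01 and 0.00 over all genes. The catalytic subunits, which carry the phosphatase activity, were measured in both muscles. At day 1, Ppp1ca had 164.2 ± 9.68 CPM against 146.1 ± 13.5 CPM in sedentary quadriceps (log2 0.19 ± 0.10, edgeR adjusted p = 0.681), and Ppp1cb, the catalytic subunit of myosin phosphatase, had 124.0 ± 16.7 against 120.2 ± 4.92 CPM (0.06 ± 0.12, adjusted p = 0.966). In tibialis anterior at day 1 Ppp1ca differed by 0.05 ± 0.09 and Ppp1cb by 0.16 ± 0.13 (log2, adjusted p = 0.945 and 0.837). Of 5 glycogen enzymes that PP1 acts on, edgeR called 0 in each of the 6 comparisons, with 0 to 3 at an unadjusted p under 0.05, and DESeq2 called 1 in tibialis anterior at day 1 and 1 at day 2.

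Dysf, which encodes the partner of Ppp1r27, rose in quadriceps at day 1, to 76.5 ± 3.38 CPM against 50.1 ± 1.88 CPM in sedentary quadriceps (SD, n = 3 each, log2 0.63 ± 0.14, edgeR adjusted p = 0.0456), the 1 call among 23 genes of dysferlin and membrane repair. That call was lost on leaving out any 1 library of either group (adjusted p = 0.0905 to 0.188), at a near equal fold. At day 2 Dysf stood at 76.2 ± 4.82 CPM (0.62 ± 0.14, adjusted p = 0.0707, and 0.00297 with DESeq2 or 0.00804 with no filter on low counts) and at day 7 at 53.7 ± 10.7 CPM (0.13 ± 0.14, adjusted p = 0.883). In tibialis anterior it stood 0.20 ± 0.20 above sedentary at day 1 on the log2 scale (adjusted p = 0.866). The genes next to Ppp1r27 on chromosome 11 stood slightly above sedentary at day 1 and were not called. Mcrip1 differed by 0.16 ± 0.21 in quadriceps and 0.16 ± 0.21 in tibialis anterior, and P4hb by 0.15 ± 0.09 and 0.09 ± 0.10 (log2, adjusted p = 0.938, 0.911, 0.765 and 0.891).

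At rest edgeR called 1 of 31 tested PP1 genes and 1 of 5 glycogen enzymes between muscles, beside 1.3% of all genes, and 1 call in a list of either size says nothing particular about it. Ppp1r14c, a PP1 inhibitor, had 116.8 ± 7.04 CPM in sedentary quadriceps and 78.6 ± 3.88 CPM in sedentary tibialis anterior (log2 0.57 ± 0.12, edgeR adjusted p = 0.0129). Gys1, muscle glycogen synthase, had 610.8 ± 12.1 CPM in quadriceps and 780.6 ± 57.8 CPM in tibialis anterior (-0.36 ± 0.07, adjusted p = 0.00694). The call of Ppp1r14c was lost without sedentary quadriceps replicate 5 or 6, or sedentary tibialis anterior replicate 6 or 7 (adjusted p = 0.0665, 0.0635, 0.0814 and 0.0633), and that of Gys1 without sedentary tibialis anterior replicate 5 (adjusted p = 0.0776).

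Among 4664 genes with a mean of at least 20 CPM over the wild-type libraries, likeness to Ppp1r27 was measured as the root mean square difference over the 6 wild-type responses of log2(CPM + 1), each a group mean against 3 sedentary libraries. The 8 nearest were Col1a2, a type I collagen chain (0.23), Septin4 (0.26), the zinc transporter Slc39a3 (0.26), Mif4gd (0.27), the glutamine transporter Slc38a3 (0.29), Col4a2, a basement membrane collagen chain (0.29), the MHC class II chain H2-Ab1 (0.29) and the heparan sulfate proteoglycan Sdc4 (0.30). Col1a2 stood at -0.46, -0.23 and 0.12 in quadriceps and at -0.90, -0.71 and -0.34 in tibialis anterior at day 1, day 2 and day 7, where Ppp1r27 stood at -0.81, -0.58 and 0.01 and at -1.05, -0.88 and -0.28. In DTR- quadriceps at day 1 the fitted log2 differences of the 8 ran from -0.88 for Sdc4 to 0.41 for Slc39a3, against -1.27 for Ppp1r27.

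In the acute DTR experiment Foxp3 was counted first. It gave 2 counts over 7 DTR+ libraries, of which 6 were at 0, and 25 counts over 8 DTR- libraries, of which 3 were at 0. By time, DTR+ libraries had 0 counts when sedentary, 2 at day 1 and 0 at day 7, and DTR- libraries had 9, 16 and 0. The counts thus give no check of the depletion at day 7. Ppp1r27 fell at day 1 in both genotypes. DTR+ quadriceps had 180.5, 177.4 and 209.4 CPM at day 1, against 369.9 and 314.4 CPM when sedentary. DTR- quadriceps had 191.6, 171.7 and 150.7 CPM at day 1, against 449.5, 305.7 and 285.9 CPM when sedentary. No day 1 library reached the lowest sedentary library of its genotype. The day 1 means were 55.3% of the sedentary mean in DTR+ and 49.4% in DTR- mice.

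The fitted log2 fold change at day 1 was -1.39 ± 0.20 in DTR+ mice (SE, edgeR adjusted p = 1.11e-05) and -1.27 ± 0.18 in DTR- mice (adjusted p = 0.000151). The gene and the comparisons were chosen with earlier results of these data known, so these p-values are no independent check of the fall. These comparisons called 42.4% and 16.4% of 14245 genes, of which 18.1% and 8.24% were called lower and 24.3% and 8.16% higher, and the median over all genes was 0.28 in DTR+ and 0.09 in DTR- mice. With libraries scaled by their total counts, as in the CPM values, the DTR+ change was -0.85 (adjusted p = 0.000747) and the DTR- change -1.02 (adjusted p = 0.000416). With each library's trends on transcript length and on GC content taken out, the DTR+ change was -0.46 (adjusted p = 0.045) and the DTR- change -0.88 (adjusted p = 0.0013). Genes detected numbered 23450 to 26524 in DTR+ quadriceps at day 1 against 14701 to 14745 when sedentary, and 21211 to 26596 in DTR- quadriceps at day 1 against 16508 to 16799 when sedentary. The day 1 libraries were also deeper, with 9653120 to 13196545 counts in DTR+ and 9829545 to 14445336 in DTR- quadriceps. Sedentary libraries held 8019161 to 8097506 and 8092740 to 9558470 counts, in the same order. Cell type markers moved as well. Fibro-adipogenic progenitor markers summed to 1013 to 1284 CPM at day 1 against 1484 to 1718 CPM when sedentary in DTR+ mice (3 of 5 called lower), and to 1195 to 1446 CPM against 1472 to 1826 CPM in DTR- mice (2 of 5 called lower). Adipocyte markers summed to 211.0 to 327.6 CPM against 296.5 to 566.5 CPM in DTR+ mice (2 of 4 called lower) and to 234.5 to 363.5 CPM against 355.3 to 600.3 CPM in DTR- mice (1 of 4 called lower). Of 6 fast fibre markers, 4 were called lower and 1 higher in DTR+ mice and 3 lower in DTR- mice. Their sum, though, was 126600 to 132200 CPM at day 1 against 98000 to 100400 CPM when sedentary in DTR+ mice. In DTR- mice it was 115100 to 126500 against 102800 to 124100 CPM. Of 5 markers of all fibres, 3 were called higher and 1 lower in DTR+ mice, and 2 higher and 1 lower in DTR- mice. These summed to 124500 to 128700 against 100600 to 111700 CPM in DTR+ mice. The sum in DTR- mice was 122400 to 130400 against 142800 to 146400 CPM. Satellite cell markers summed to 8.57 to 9.09 against 4.57 to 4.86 CPM in DTR+ mice (0 called), and the ranges overlapped in DTR- mice. Endothelium markers summed to 139.7 to 166.0 against 74.71 to 82.3 CPM in DTR+ mice (1 of 4 called higher). Their sum in DTR- mice was 138.6 to 151.9 against 79.1 to 111.6 CPM (0 called). Schwann cell markers summed to 17.31 to 20.51 against 5.31 to 6.983 CPM in DTR+ mice. In DTR- mice their sum was also higher at day 1, without overlap. Of the 2 Schwann cell markers tested, 1 was called higher in each genotype. Macrophage markers overlapped in both genotypes, with 2 of 5 called higher and 1 lower in DTR+ mice. No marker of the lists named here was at 0, save 1 Schwann cell marker in sedentary DTR+ mice. The part of these differences between libraries and markers in the fall was not tested.

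By day 7 the level was no longer low. DTR+ quadriceps had 512.4 and 376.2 CPM at day 7, above both sedentary libraries, with a log2 difference of 0.25 ± 0.22 (95% interval -0.21 to 0.71, edgeR adjusted p = 0.678). DTR- quadriceps had 398.3 and 446.6 CPM, within the sedentary range, with a difference of 0.18 ± 0.20 (-0.24 to 0.59, adjusted p = 0.905). These comparisons called 1.01% and 0.00702% of genes. The day 7 DTR+ libraries had 20.005% to 21.8% of counts from mitochondrially encoded genes and 15300 to 15306 genes detected, like the sedentary DTR+ libraries, against 8.70% to 8.92% and 16843 to 18494 genes in the day 7 DTR- libraries. The part of this makeup in the day 7 level was not tested.

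No difference between the genotypes passed the test. DTR+ against DTR- differed by 0.28 ± 0.20 when sedentary (95% interval -0.14 to 0.70, edgeR adjusted p = 0.32), by 0.17 ± 0.18 at day 1 (-0.21 to 0.54, adjusted p = 1.0) and by 0.36 ± 0.22 at day 7 (-0.10 to 0.82, adjusted p = 0.256), on the log2 scale. The sedentary means were 342.1 ± 39.2 CPM for DTR+ quadriceps and 347.0 ± 89.2 CPM for DTR- quadriceps (SD, n = 2 and 3), so the fitted sign is not that of the CPM values, and scaling by total counts gave -0.021. Without sedentary DTR- replicate 1, the highest of its group at 449.5 CPM, the sedentary difference was 0.54 (adjusted p = 0.0365). With the length and GC trend removed it was -0.20 (adjusted p = 0.464), and at day 7 -0.18 (adjusted p = 0.56). The response at day 1 differed by -0.11 ± 0.27 between DTR+ and DTR- mice (-0.68 to 0.45, adjusted p = 0.834) and that at day 7 by 0.08 ± 0.30 (-0.55 to 0.70, adjusted p = 0.987), where 15.3% and 0.0772% of genes were called. The day 1 difference turned positive with scaling by total counts (0.16) and with the length and GC trend removed (0.42). Of all genes, 26.6%, 0.0% and 25.3% were called between DTR+ and DTR- quadriceps when sedentary, at day 1 and at day 7. At day 1 edgeR and DESeq2 each called 0 genes, with 280 and 314 at an unadjusted p under 0.05.

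**Figure D3:**
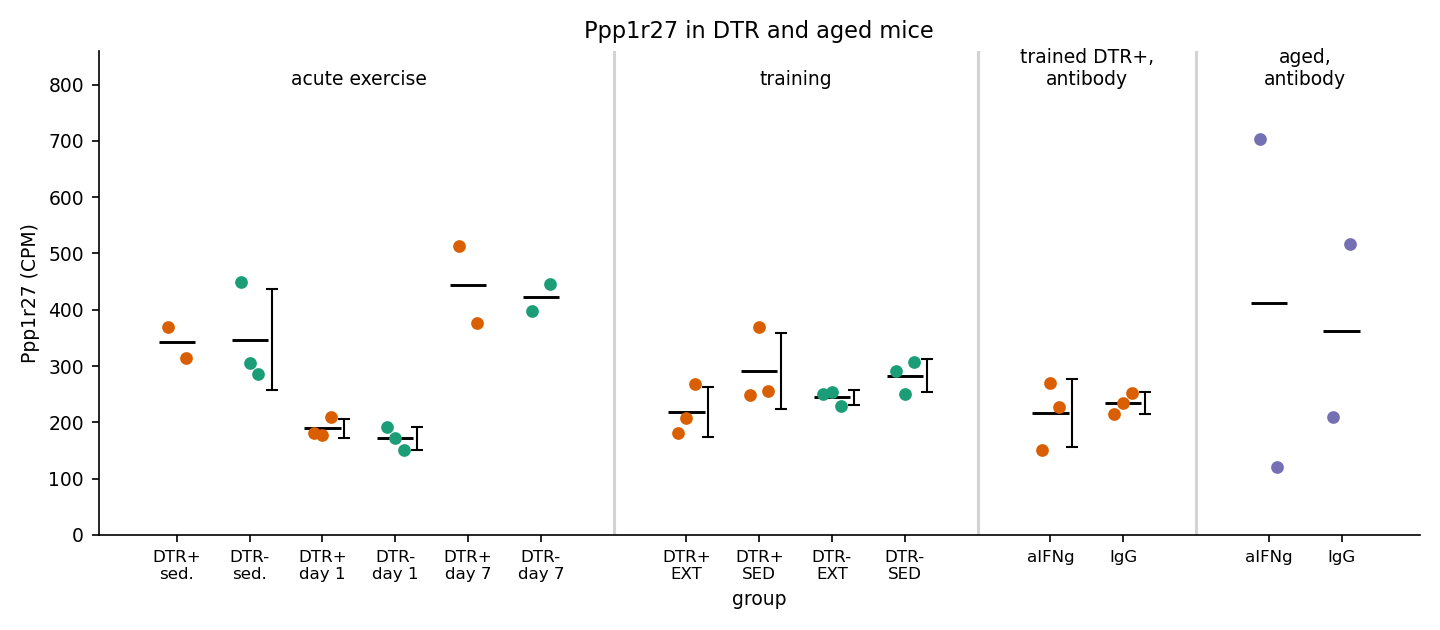
Ppp1r27 in CPM (y axis) in each library of the acute DTR, training, antibody and aged experiments (x axis, groups). Points are libraries and lines are means, with the SD as a bar where a group has 3 libraries. Day 1 libraries lie between 150.7 and 209.4 CPM in both genotypes, below every sedentary and day 7 library of that experiment, and the 4 aged libraries spread from 121.1 to 704.0 CPM.

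Of 32 PP1 genes tested at day 1 in this experiment, 10 rose and 7 fell in DTR+ mice (median log2 0.46 against 0.28 over all genes), where 24.3% of all genes were called higher and 18.1% lower. In DTR- mice 3 rose and 1 fell (median -0.04 against 0.09), where 8.16% of all genes were called higher and 8.24% lower. The share of PP1 genes called in DTR- mice was near that background. In DTR+ mice Ppp1cc, a catalytic subunit, fell to 3.33 ± 0.801 CPM against 16.8 ± 0.236 CPM when sedentary (-2.86 ± 0.34, edgeR adjusted p = 1.07e-06), and Ppp1r2, inhibitor-2, rose to 98.7 ± 6.35 against 41.8 ± 5.03 CPM (0.70 ± 0.15, adjusted p = 0.000717). In DTR- mice Ppp1r3a, the muscle glycogen-targeting subunit, rose to 568.1 ± 16.6 against 240.1 ± 40.8 CPM (1.00 ± 0.15, adjusted p = 0.000247, and 0.57 with adjusted p = 0.0523 once the length and GC trend was removed).

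Of the 5 glycogen enzymes, 4 rose and 0 fell in DTR+ mice, and 2 rose and 1 fell in DTR- mice, beside 42.4% and 16.4% of all genes called. Phkb, a regulatory subunit of phosphorylase kinase, rose to 342.8 ± 22.6 against 160.0 ± 6.18 CPM in DTR+ mice (0.56 ± 0.14, edgeR adjusted p = 0.00254) and to 311.0 ± 7.88 against 144.3 ± 1.73 CPM in DTR- mice (0.85 ± 0.12, adjusted p = 0.000147). Without sedentary DTR+ replicate 3 the first was no longer called (adjusted p = 0.0514). Of 23 membrane repair genes, 6 rose and 7 fell in DTR+ mice, beside 42.4% of all genes called, and 2 rose and 2 fell in DTR- mice, a share near the 16.4% of all genes called. Cavin1, a coat protein of caveolae, rose by 2.12 ± 0.17 and Anxa1, an annexin, fell by 2.16 ± 0.21 in DTR+ mice (adjusted p = 5.36e-09 and 5.57e-08), and Trim72, the repair protein MG53, rose by 2.87 ± 0.46 in DTR- mice (adjusted p = 0.000377), all on the log2 scale. Dysf stood at 47.2 ± 7.95 against 22.7 ± 5.07 CPM in DTR+ mice (0.53 ± 0.24, adjusted p = 0.0807) and 44.9 ± 4.90 against 25.1 ± 2.15 CPM in DTR- mice (0.59 ± 0.21, adjusted p = 0.0597).

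Training for 2 weeks gave no called change of Ppp1r27. Foxp3 gave 2 counts over 6 DTR+ and 4 counts over 6 DTR- libraries, too few to check the depletion. Trained DTR+ quadriceps had 181.1, 207.6 and 267.3 CPM, against 249.1, 368.9 and 255.1 CPM in sedentary DTR+ quadriceps. Trained DTR- quadriceps had 249.6, 253.9 and 228.9 CPM, against 291.3, 249.8 and 307.3 CPM in sedentary DTR- quadriceps. The trained means were the lower ones in both genotypes, and the ranges overlapped in both. The log2 difference was -0.49 ± 0.20 in DTR+ mice (95% interval -0.92 to -0.06, edgeR adjusted p = 0.279) and -0.27 ± 0.20 in DTR- mice (-0.70 to 0.16, adjusted p = 0.999). Without sedentary DTR+ replicate 2, at 368.9 CPM, the DTR+ difference was -0.16.

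DTR+ against DTR- quadriceps differed by 0.11 ± 0.20 when sedentary (-0.32 to 0.53, adjusted p = 0.988) and by -0.11 ± 0.20 when trained (-0.54 to 0.32, adjusted p = 0.994), and 0.0477% and 0.89% of genes were called. The training response differed by -0.21 ± 0.29 between the genotypes (-0.82 to 0.39, adjusted p = 0.974, 0.27% of genes called). In the DTR+ training comparison 2.21% of 12579 genes were called and 1 of 30 tested PP1 genes. That was Ppp1r3c, which rose to 892.2 ± 34.1 CPM in trained against 428.6 ± 83.3 CPM in sedentary DTR+ quadriceps (1.03 ± 0.16, adjusted p = 0.00118). Dysf fell there, to 30.2 ± 8.33 against 55.4 ± 19.6 CPM (-0.89 ± 0.23, adjusted p = 0.0462), a call lost without sedentary DTR+ replicate 1 or 3, trained DTR+ replicate 1 or 2, or with total count scaling (adjusted p = 0.0713, 0.158, 0.176, 0.303 and 0.103). In DTR- mice 0.103% of genes and 0 of the 30 PP1 genes were called by edgeR, with 3 of the PP1 genes at an unadjusted p under 0.05 and 0 called by DESeq2.

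Neutralising interferon-gamma in trained DTR+ mice gave no called change of Ppp1r27. The aIFNg quadriceps had 150.7, 270.3 and 227.8 CPM and the IgG quadriceps 215.0, 235.2 and 252.9 CPM. The ranges overlapped, and the log2 difference was -0.12 ± 0.16 (95% interval -0.46 to 0.22, edgeR adjusted p = 0.889), or 0.088 without aIFNg replicate 1. In this comparison 1.35% of 11742 genes and 0 of 29 tested PP1 genes were called by edgeR, with 3 of these at an unadjusted p under 0.05 and 0 called by DESeq2. Bin1, the membrane-curving protein amphiphysin 2, rose to 566.8 ± 47.8 CPM in aIFNg against 317.4 ± 113 CPM in IgG quadriceps (0.84 ± 0.17, adjusted p = 0.0262). It was the 1 call among the 23 membrane repair genes, and it was lost with DESeq2 (adjusted p = 0.175) and without any of the 3 aIFNg libraries or IgG replicate 1 or 2 (adjusted p = 0.0889 to 0.147).

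The aged libraries did not allow a comparison. The aIFNg libraries had 704.0 and 121.1 CPM and the IgG libraries 208.7 and 517.4 CPM, with a log2 difference of 0.43 ± 1.33 (95% interval -2.65 to 3.52, edgeR adjusted p = 1.0). Of 12531 genes, 0.0% were called by edgeR and 0 by DESeq2, with 64 and 107 at an unadjusted p under 0.05. The library with 704.0 CPM had 14.0% of its counts from mitochondrially encoded genes and 14887 genes detected, and that with 517.4 CPM had 8.17% and 16450 genes. The libraries with 121.1 and 208.7 CPM had 3.25% and 4.81%, with 18003 and 20328 genes detected. The order of Ppp1r27 in these 4 libraries was thus that of the mitochondrial share and the reverse of that of genes detected, save that the lowest 2 libraries change places in genes detected.

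**Figure D4:**
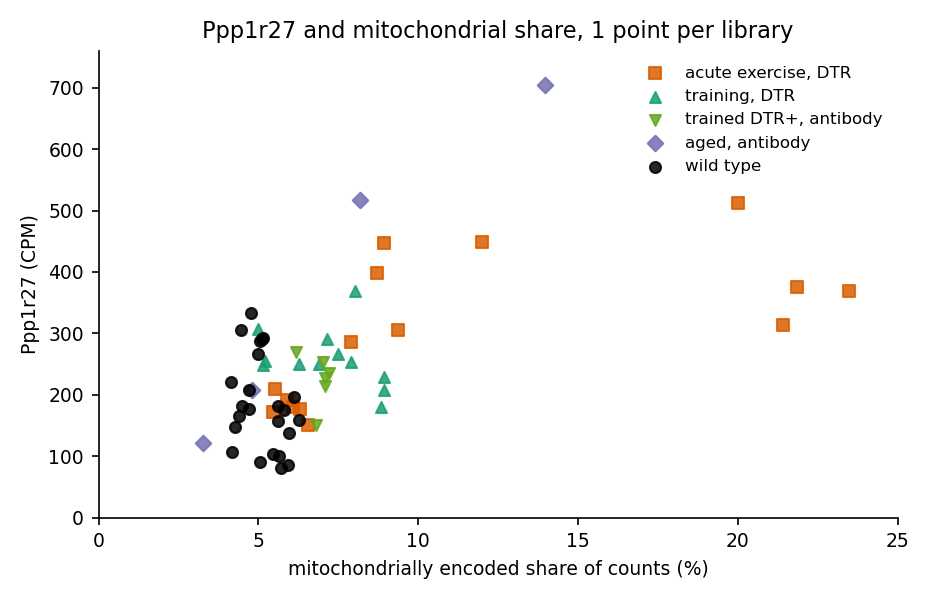
Ppp1r27 in CPM (y axis) against the share of counts from mitochondrially encoded genes in percent (x axis), 1 point per library, marked by experiment. The wild-type libraries span 80.7 to 334.0 CPM within a share of 4.13% to 6.25%, while the 4 aged libraries and the acute DTR libraries spread along both axes.

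Ordered by mean CPM, the 22 groups ran from acute DTR+ quadriceps at day 7 (444.3 ± 96.3 CPM, SD, n = 2) to wild-type tibialis anterior at day 1 (89.1 ± 9.85 CPM, n = 3), a ratio of 4.99. Of 21 neighbouring pairs in that order, which by itself sets groups of close means side by side, 19 overlapped in their libraries. The other 2 were sedentary acute DTR+ quadriceps (342.1 CPM) above wild-type quadriceps at day 7 (296.7 CPM), and wild-type tibialis anterior at day 7 (151.7 CPM) above the same muscle at day 2 (100.1 CPM). The lowest quadriceps means were those of day 1, with 189.1 CPM for DTR+, 171.3 CPM for DTR- and 168.6 CPM for wild-type quadriceps. The 22 groups come from 5 experiments, which were fitted separately, and no test across experiments was made.

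**Figure D5:**
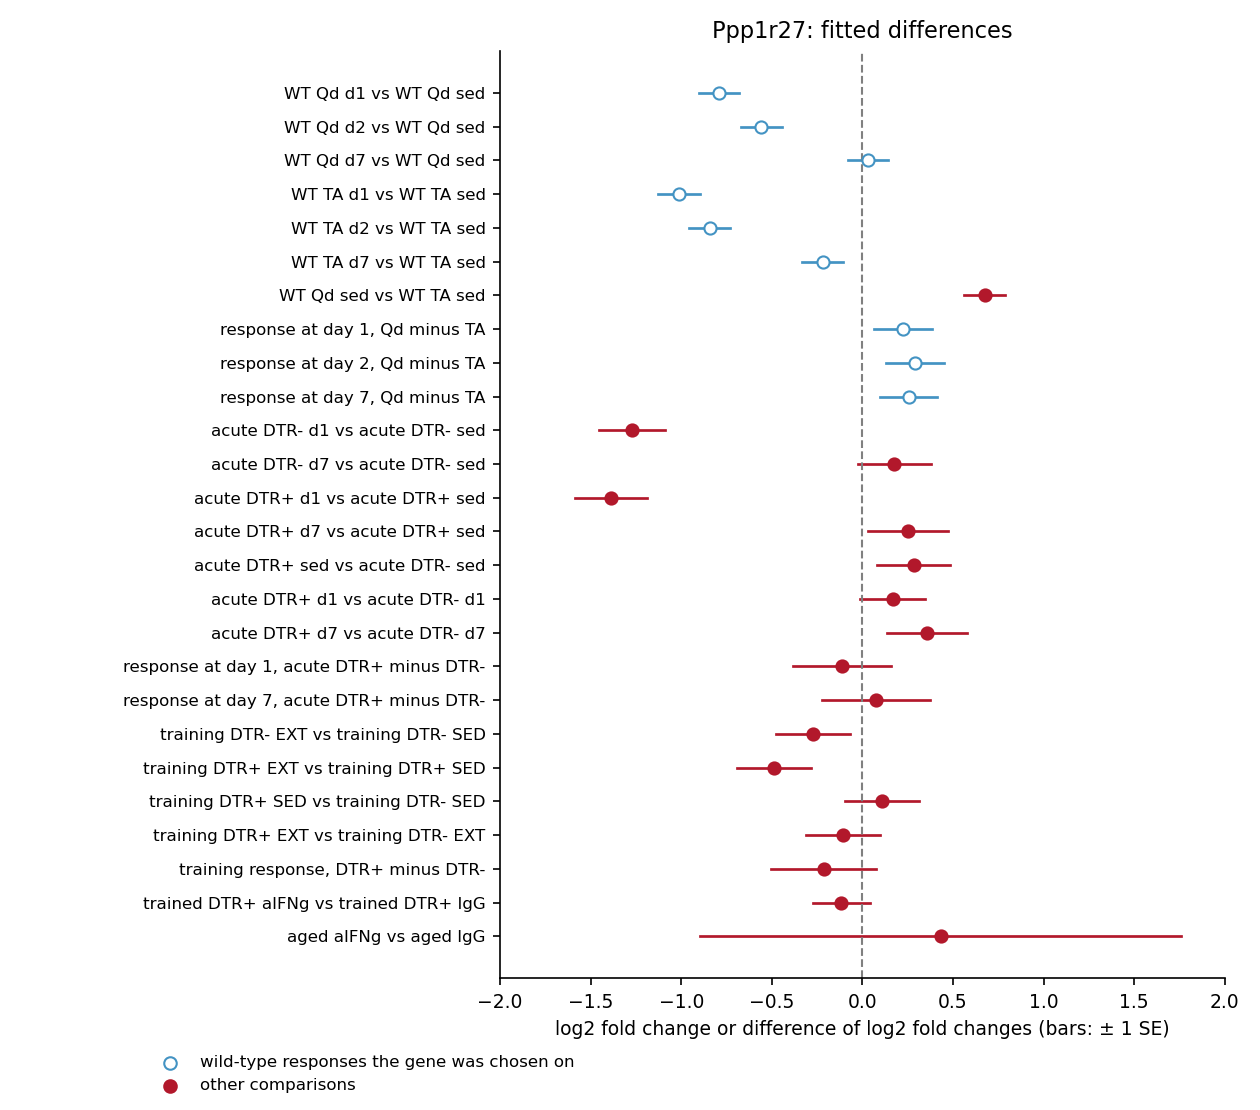
Fitted log2 fold change of Ppp1r27, or difference of 2 log2 fold changes, (x axis) in each comparison (y axis, first-named group over second). Open points are the wild-type responses on which the gene was chosen, filled points the other comparisons, and bars are 1 SE either side. The day 1 responses lie at -1.39 in DTR+ and -1.27 in DTR- quadriceps, and at -0.79 in quadriceps and -1.01 in tibialis anterior of wild-type mice.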

How the data were processed

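Per the labels' protocols, 2 ng of whole-muscle RNA went into each library, under the ultra-low-input protocol of the ImmGen consortium. The deposited values are gene counts. Per the submitters' processing notes, the authors used STAR 2.7.3a, featureCounts and mm10; the sources used here do not give annotation, strand setting or treatment of multiply mapped reads. From these counts, CPM were computed on library totals, and each experiment was fitted on its own with edgeR 4.0.16 in R 4.3.3 (filterByExpr with a minimum count of 10 and total of 15, TMM factors, quasi-likelihood F tests, Benjamini-Hochberg adjustment over all genes tested, calls under 0.05). All 24 wild-type libraries shared a fit for comparisons between muscles. TMM factors and total counts differ most in the acute DTR experiment, so fitted fold changes there depart from ratios of CPM. Every adjusted p is edgeR's unless DESeq2 is named.

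There were 20 comparisons of pairs of groups and 6 of responses, of which the 9 wild-type responses and response differences were not tested. The edgeR fit was tested on simulated counts with the same spread for every gene and no differences in library makeup beyond depth. Ppp1r27, the lists and the comparisons were chosen with earlier results of these data known. Genes named were Ppp1r27, catalytic subunits, Dysf, the neighbours Mcrip1 and P4hb, the 8 most alike genes and up to 3 called members per list. Libraries of 1 group are separate samples in the labels, and ID numbers shared by both muscles are read as the mouse, which the labels do not state. Deviations of the 12 pairs sharing an ID number correlated at -0.046 to 0.08. Alternatives were DESeq2 1.42.0, median-ratio factors, no filter, no mitochondrial genes, removal of length and GC trends, a replicate block, pairs alone, single libraries left out and, chosen after seeing the data, total count scaling and a crossed block.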

Additional observations from a re-analysis of the deposited data

Results flagged for a closer look

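Each result here is a difference of log2 responses at day 1, DTR+ minus DTR-, that passed edgeR's interaction test among listed genes. Of the PP1 genes, Ppp1cc (-2.04) and Ppp1r14b (-1.39) were lower, and Ppp1r16a (1.96), Ppp1r13b (3.11) and Ppp1r37 (2.69) higher, in the DTR+ response. Of the glycogen enzymes, Gys1 (1.00), Pygm (0.70) and Phkg1 (0.56) were higher. Of the 23 listed membrane repair genes, 7 were called, and the 3 with the smallest p are named. Of these, Cavin1 (1.95) was higher and Anxa1 (-1.69) and Anxa5 (-0.90) were lower. Over all 14245 genes 15.3% were called. With the length and GC trend removed the calls of Ppp1r16a, Ppp1r37, Gys1, Pygm and Anxa5 were lost (adjusted p = 0.123, 0.0758, 0.373, 0.857 and 0.0514). The calls of Ppp1r14b and Phkg1 were lost with the replicate block (adjusted p = 0.0657 and 0.0852) and on leaving out most single libraries. The sedentary DTR+ libraries behind these differences had 21.4% to 23.5% of counts from mitochondrially encoded genes, and their part was not tested.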

How the results depend on the processing

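All values are log2 differences of Ppp1r27. Of 133 values of the 17 tested results under alternatives that keep every library, 126 kept direction and side of the threshold. The other 7 were sign changes of differences that were not called. With the length and GC trend removed these were DTR+ against DTR- in acute sedentary (-0.20) and day 7 (-0.18) quadriceps, their day 1 response difference (0.42), and DTR+ against DTR- sedentary quadriceps of the training experiment (-0.0295). With total count scaling they were the acute sedentary difference (-0.021) and the day 1 response difference (0.16). With the replicate block, the aged difference was -0.0435.

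Leaving out 1 library at a time, 93 of 107 values of the tested results kept both. The exceptions lay in the acute sedentary difference between genotypes (0.12 to 0.54), the acute response differences at day 1 (-0.37 to 0.044) and day 7 (-0.18 to 0.29), the genotype difference in the training experiment when sedentary (-0.23 to 0.24) and trained (-0.24 to 0.0011), the difference in training response (-0.35 to 0.11), the antibody difference (-0.30 to 0.088) and the aged difference (-1.94 to 1.70). Of the 9 untested wild-type values, that of quadriceps at day 7 turned sign, to -0.022 with the length and GC trend removed and -0.0316 without sedentary replicate 5, within its SE of 0.11. A group left with 1 library was assumed to vary like the others.

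With the replicate block the resting difference between muscles was 0.67 (adjusted p = 0.000458), and the block changed no call of Ppp1r27. Replicate numbers outside the wild-type experiment pair samples by number only. Deviations of same-numbered libraries correlated at -0.208 to 0.071 in the acute, -0.215 to 0.191 in the training and -0.096 to -0.013 in the antibody experiment. They correlated at -0.787 in the aged one, where crossing the numbers also gave 0 called genes. Among 82 results of listed genes, 4 changed sign in DTR+ quadriceps at day 1, Ppp1r12b (-0.053) and Pygm (-0.14) with the length and GC trend removed and Ppp1cb (0.17) and Ppp1r3c (0.11) with total count scaling. With 2 libraries per group in the aged and in 3 acute groups, small differences could not be seen.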
